A study of Homo sapiens with 4 samples.

Results

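Sialyltransferases of the ST6GALNAC and ST3GAL groups, together with ST6GAL1, were followed in HGC-27 cells after knockdown of USP47. The set held 10 of the 63568 gene identifiers in the files. These were ST6GALNAC2, ST6GALNAC3, ST6GALNAC4, ST6GALNAC5, ST6GALNAC6, ST3GAL1, ST3GAL2, ST3GAL3, ST3GAL5 and ST6GAL1, matched by symbol to the identifier without its version. The set was selected on its counts in USP47 shRNA against control shRNA, with the fall of ST6GALNAC3 already known, so the differences between the groups are given for these 10 enzymes as descriptions, without p-values. The whole human set of 20 sialyltransferases served as the frame for comparing levels.

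HGC-27, an established cell line, comes from a gastric carcinoma, and USP47 is a deubiquitinase, an enzyme that removes ubiquitin from proteins. All cells grew in RPMI 1640 with FBS and were infected with lentivirus that carried either a scrambled shRNA (Control shRNA, 2 libraries) or an shRNA against USP47 (USP47 shRNA, 2 libraries), and polyA RNA was sequenced. By the study's methods these were stable cell lines, for which 2 independent USP47 shRNAs were made, and the sources used here do not state which of them each knockdown library carries. The study's methods speak of RNA taken in triplicate, whereas 2 libraries per group were used here. The labels do not tie the libraries of a group to separate cultures, so the spread and the p-values measure the difference between these libraries, which may in part be technical.

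Total counts on genes were between 15649899 and 20140273 per library. USP47 itself was counted 1357 and 1297 times with control shRNA and 749 and 309 times with USP47 shRNA. Its log2 fold change was -1.34 (SE 0.21, adjusted p = 0.00362, edgeR's quasi-likelihood test), so the targeted transcript was lower in both knockdown libraries but was still present. Pearson correlations of log2 CPM (counts scaled to library size, after TMM scaling) were 0.993 within control, 0.987 within knockdown and between 0.972 and 0.976 across the groups. Of 5 epithelial markers, 0 were above 1 CPM in every library, whereas 4 of 5 mesenchymal markers were, and of 7 gastric lineage markers 2 were (MUC6 and CLDN18). Of 2 endothelial markers, 0 were above 1 CPM in every library. The summed level of the epithelial markers was 2.06 and 2.24 CPM with control shRNA and 2.02 and 1.46 CPM with USP47 shRNA. That of the mesenchymal markers was 749.4 and 741.5 CPM against 578.8 and 715.6 CPM. Most of this sum was VIM. FN1, of the same list, stood at 73.1 and 73.8 CPM with control shRNA and 26.2 and 32.0 CPM with USP47 shRNA. The groups overlapped for VIM (468.5 and 470.8 against 352.7 and 501.7 CPM) and SPARC (101.7 and 107.4 against 98.4 and 113.6 CPM). They also overlapped for ZEB1 (105.9 and 89.4 against 101.0 and 68.1 CPM). CDH2, at a low level, was not lower (0.177 and 0.153 against 0.481 and 0.209 CPM). The part of these levels in the results was not tested.

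Sialyltransferases are membrane enzymes of the Golgi apparatus that move sialic acid from its activated form, CMP-sialic acid, onto the ends of sugar chains on proteins and lipids. The ST3GAL enzymes add it to a terminal galactose, ST6GAL1 adds it to galactose by another linkage, mainly on N-glycans, and the ST6GALNAC enzymes add it to N-acetylgalactosamine in mucin-type O-glycans and gangliosides. The ST8SIA enzymes lengthen a chain by adding sialic acid to sialic acid. Sialylated structures such as sialyl-Tn and the sialyl Lewis antigens are well-known markers of gastric and other carcinomas.

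With USP47 shRNA, ST6GALNAC3 and ST3GAL3 were lower in both libraries, whereas ST3GAL2, ST6GALNAC4 and ST6GALNAC6 were slightly higher in both and the other expressed members lay within the spread of the libraries. Of the 10 members, 8 passed the filter on low counts. An adjusted p under 0.05, from a quasi-likelihood test in edgeR adjusted over the 21932 genes tested by the Benjamini-Hochberg method, was reached by 2 members in the downward direction and by 0 in the upward direction. Across all genes tested 16.1% reached it, 9.56% downward and 6.52% upward. Because the same contrast was known when the members were chosen, nothing is read from the members' count against this background. Both knockdown libraries lay below both controls for 2 of the 8 tested members and above both for 3, and the same held for 31.7% and 29.3% of all genes tested. The log2 fold changes of the 8 members ranged from -1.97 to 0.47 with a median of 0.09, and the median over all genes tested was -0.0083. In bulk RNA, fewer cells that express a gene and less RNA per cell cannot be told apart.

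**Figure D1:**
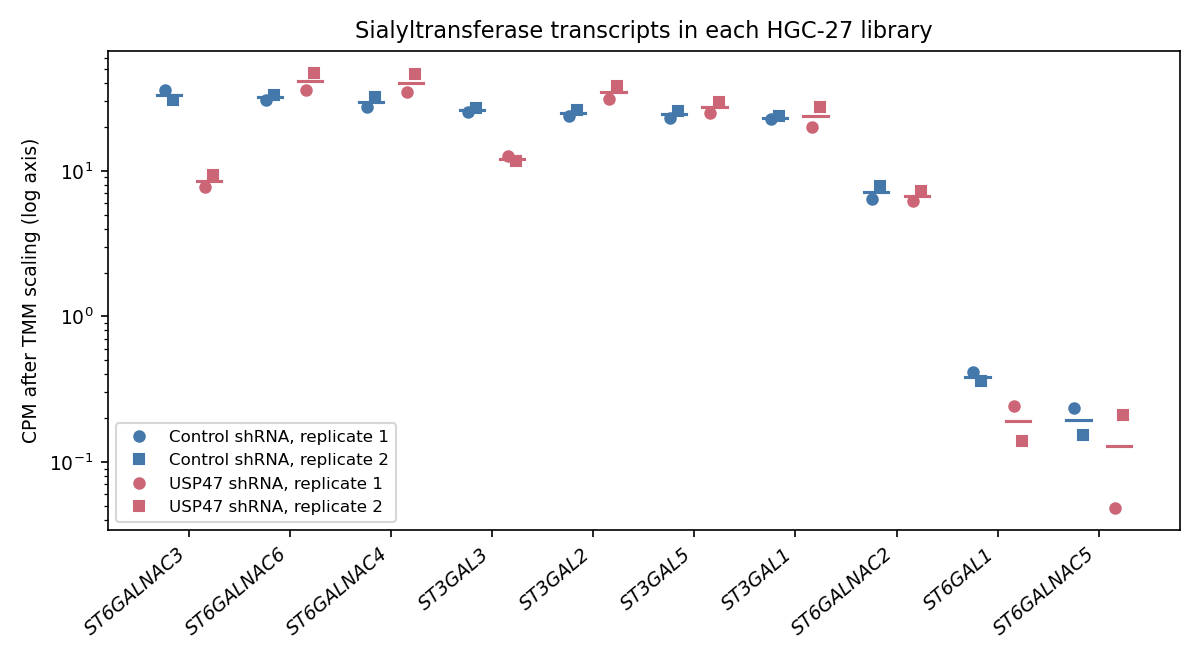
Level of each of the 10 members in CPM after TMM scaling on a log axis, with a point for each of the 4 libraries and a bar for each group mean (n = 2). ST6GALNAC3 and ST3GAL3 show the knockdown points below the control points, and ST6GALNAC4, ST6GALNAC6 and ST3GAL2 show them above. ST6GALNAC5 and ST6GAL1 lie near the limit that 3 counts set, ST6GAL1 with its knockdown points also below the control points.

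ST6GALNAC3 adds sialic acid to the N-acetylgalactosamine of an O-glycan or ganglioside whose galactose already carries one. It is annotated on chromosome 1 of GRCh37, from 76540431 to 77100288 on the plus strand (ENSG00000184005). Its counts were 610 and 603 with control shRNA and 161 and 134 with USP47 shRNA. This came to 36.0 and 30.7 CPM with control shRNA and to 7.74 and 9.34 CPM with USP47 shRNA. The groups were far apart, the higher knockdown library lying well below the lower control library. The group means were 33.4 ± 3.70 CPM (SD, n = 2) and 8.54 ± 1.13 CPM (SD, n = 2), a log2 fold change of -1.97 (SE 0.16), or 3.92-fold lower. The knockdown libraries kept 23.2% and 28.0% of the control mean. Ordered by fold change, ST6GALNAC3 was the 129th lowest of the 21932 genes tested and the 45th lowest of the 15792 genes whose mean log2 CPM was 1 or more.

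ST3GAL3 sialylates the galactose of N-acetyllactosamine chains and takes part in making sialyl Lewis antigens. It also lies on chromosome 1, from 44171495 to 44396837 on the plus strand (ENSG00000126091). Its counts were 428 and 527 with control shRNA and 262 and 167 with USP47 shRNA. In CPM these were 25.2 and 26.9 against 12.6 and 11.6, and the groups did not overlap. The means were 26.0 ± 1.15 CPM and 12.1 ± 0.681 CPM (SD, n = 2 each), a log2 fold change of -1.10 (SE 0.14), or 2.15-fold lower. The knockdown libraries kept 48.4% and 44.7% of the control mean, which is more than ST6GALNAC3 kept in either library. It was the 927th lowest fold change of all genes tested. ST3GAL3-AS1, on the other strand, shares 113 exonic bases with it in GENCODE release 44 and was counted 30 and 23 times with control shRNA and 39 and 16 times with USP47 shRNA. A same-strand gene model, ENSG00000284989, shares 1951 exonic bases with ST3GAL3 in that release and was not among the gene identifiers counted.

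The promoters of these 2 genes are shown because both transcripts were lower with USP47 shRNA, beside that of ST6GALNAC4, which was not. ST6GALNAC4 was the most abundant member in TPM (a level per length, given below), though not in CPM. The windows are from RefSeq (GRCh38.p14) and run from 250 bases before to 50 after the annotated start, 5′ to 3′ along the gene, and the capitals mark matches on either strand to the GC box (GGGCGG) or to the CCAAT box (letters CCAAT). The windows are at chr1:76074496-76074795 (plus strand) for ST6GALNAC3, chr1:43707286-43707585 (plus strand) for ST3GAL3 and chr9:127916992-127917291 (minus strand) for ST6GALNAC4.
ST6GALNAC3: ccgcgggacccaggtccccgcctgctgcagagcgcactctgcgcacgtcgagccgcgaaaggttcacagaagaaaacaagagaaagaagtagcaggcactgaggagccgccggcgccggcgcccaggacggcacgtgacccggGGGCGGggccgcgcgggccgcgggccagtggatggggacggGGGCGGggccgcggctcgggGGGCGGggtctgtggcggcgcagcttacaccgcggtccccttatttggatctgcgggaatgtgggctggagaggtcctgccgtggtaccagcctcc
ST3GAL3: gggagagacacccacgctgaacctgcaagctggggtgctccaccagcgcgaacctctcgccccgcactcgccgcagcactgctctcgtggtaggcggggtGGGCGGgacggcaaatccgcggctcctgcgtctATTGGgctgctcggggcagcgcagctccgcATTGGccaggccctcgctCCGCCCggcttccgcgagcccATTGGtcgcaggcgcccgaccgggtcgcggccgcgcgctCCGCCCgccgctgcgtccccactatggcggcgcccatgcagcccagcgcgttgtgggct
ST6GALNAC4: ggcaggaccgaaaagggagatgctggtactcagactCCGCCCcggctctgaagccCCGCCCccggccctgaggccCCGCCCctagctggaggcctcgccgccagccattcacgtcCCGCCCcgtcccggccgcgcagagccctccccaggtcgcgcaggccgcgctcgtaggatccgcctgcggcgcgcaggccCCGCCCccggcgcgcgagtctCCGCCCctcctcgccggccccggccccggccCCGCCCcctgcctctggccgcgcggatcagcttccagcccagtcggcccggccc

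ST6GALNAC3 held 3 GC boxes in a window of 72.0% GC, ST3GAL3 held 3 GC boxes and 3 CCAAT boxes in 73.7% GC, and ST6GALNAC4 held 7 GC boxes in 79.0% GC. A GC box was found in 45.0% of the 35116 RefSeq windows of this length and a CCAAT box in 34.6%, and the median GC content was 58.7%. The TATA box (TATAAA) was found in 11.5% of all windows and in none of these 3. The E-box that Snai1 recognises (CAGGTG, read on both strands) was searched because the study also examined this transcription factor. It was found in 20.6% of all windows. Among the 7 members with a window it was in 1 of 5 windows of ST3GAL5 and in no window of ST6GALNAC3, ST6GALNAC4, ST6GALNAC5, ST6GALNAC6, ST3GAL3 or ST6GAL1. No sequence is printed for ST6GALNAC2, ST3GAL1 and ST3GAL2. These matches describe letters in a window and nothing about binding.

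ST6GALNAC4, which sialylates the same kind of O-glycan acceptor as ST6GALNAC3, lay the other way by a small amount. Its levels were 27.5 and 32.1 CPM with control shRNA and 34.5 and 46.1 CPM with USP47 shRNA, from 467, 630, 718 and 661 counts. Both knockdown libraries lay above both controls, by little in replicate 1. The log2 fold change was 0.43 (SE 0.16) and did not reach the threshold. ST6GALNAC6, which acts mainly on glycolipids, followed a like course at 30.7 and 33.2 CPM against 35.9 and 47.3 CPM, with a log2 fold change of 0.38 (SE 0.15) that also missed the threshold. The 2 genes are neighbours on the minus strand of chromosome 9 of GRCh37, ST6GALNAC6 from 130647600 to 130667687 and ST6GALNAC4 from 130670165 to 130679320, with 2477 bases between them. On the same strand, ENSG00000257524 shares 2494 exonic bases with ST6GALNAC6 and was counted 2, 4, 0 and 2 times in the control and knockdown libraries.

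ST6GALNAC2, which sialylates core O-glycans, was a low member with levels of 6.43 and 7.85 CPM with control shRNA and 6.15 and 7.25 CPM with USP47 shRNA. The groups overlapped, and the log2 fold change was -0.10 (SE 0.19). ST6GALNAC5, known for making brain-type gangliosides, was counted 4 and 3 times with control shRNA and 1 and 3 times with USP47 shRNA. It did not pass the filter, and a difference was not detectable at this depth. It lies 232876 bases from ST6GALNAC3 on the same strand of chromosome 1, so the member next to the one that fell most was close to silent in all 4 libraries.

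Among the ST3GAL members, ST3GAL2, which caps O-glycans and gangliosides, was the only one with both knockdown libraries above both controls. Its levels were 23.9 and 26.1 CPM with control shRNA and 31.4 and 38.3 CPM with USP47 shRNA, with means of 25.0 ± 1.56 and 34.8 ± 4.88 CPM (SD, n = 2 each). The log2 fold change of 0.47 (SE 0.15) was the highest among the 8 members. Over the 4 fits that each left out 1 library it ran from 0.33 to 0.62, that of ST6GALNAC4 from 0.21 to 0.63 and that of ST6GALNAC6 from 0.17 to 0.57. For all 3 enzymes the lowest value came without USP47 shRNA replicate 2 and the highest without USP47 shRNA replicate 1. With DESeq2's size factors, 3 members passed the threshold, 2 lower and ST3GAL2 higher, where 3495 of all 21932 genes tested passed.

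ST3GAL5 makes GM3, the ganglioside from which most others are built. It stood at 23.1 and 25.7 CPM with control shRNA and 25.1 and 29.7 CPM with USP47 shRNA. ST3GAL1, which caps the core O-glycan known as the T antigen, stood at 22.6 and 23.8 CPM with control shRNA and 19.9 and 27.3 CPM with USP47 shRNA. For both enzymes the groups overlapped, with log2 fold changes of 0.16 (SE 0.14) and 0.02 (SE 0.17), and the direction for ST3GAL1 turned to -0.06 when libraries were scaled by their size alone. ST6GAL1, the main enzyme of N-glycan sialylation in many epithelia and in liver, was counted 7 and 7 times with control shRNA and 5 and 2 times with USP47 shRNA. At 0.413 and 0.357 CPM against 0.240 and 0.139 CPM its groups did not overlap. It was close to the level that 3 counts give in these libraries (0.144 to 0.209 CPM), so no difference could be shown. Of the 8 expressed members, 7 were higher in USP47 shRNA replicate 2 than in replicate 1 on the CPM scale, with ST3GAL3 the exception, and on the deposited TPM scale 1 was.

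**Figure D2:**
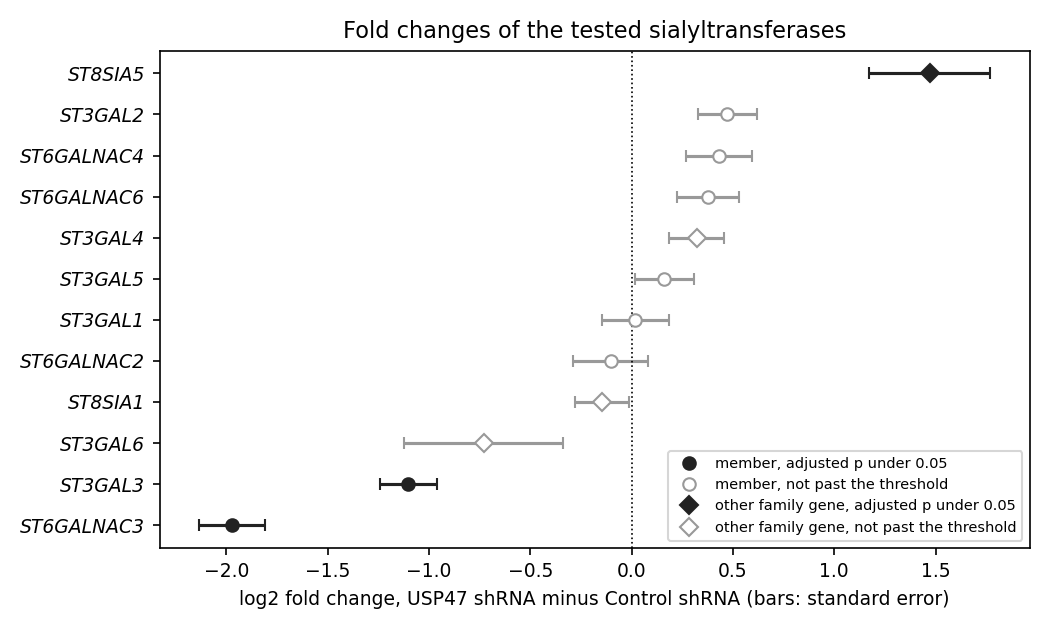
Log2 fold change (USP47 shRNA minus Control shRNA) of the 12 sialyltransferases that passed the filter on low counts, with bars of 1 SE either way. Members are circles and the other enzymes diamonds, dark and filled where the adjusted p was under 0.05. ST6GALNAC3 (-1.97) and ST3GAL3 (-1.10) stand at the lower end and ST8SIA5 (1.47) at the upper end.

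Levels were compared between genes in TPM, which is per length. In the control libraries ST6GALNAC4 led the sialyltransferases at 15.5 ± 0.291 TPM (SD, n = 2), beside ST3GAL4, which is no member, at 15.2 ± 0.513 TPM, and these 2 overlapped between libraries. ST6GALNAC6 (8.22 ± 0.271 TPM) and ST3GAL3 (8.05 ± 0.368 TPM) followed and overlapped each other. Next came ST6GALNAC3 at 6.35 ± 1.27 TPM, which overlapped both ST3GAL5 at 5.84 ± 0.0700 TPM and ST3GAL2 at 5.44 ± 0.150 TPM. ST3GAL1 followed at 3.64 ± 0.198 TPM. ST6GALNAC2 stood at 1.29 ± 0.0661 TPM. With USP47 shRNA the same 3 enzymes led, ST6GALNAC4 at 19.0 TPM in both libraries, whereas ST3GAL3 went from place 4 to place 6 and ST6GALNAC3 from place 5 to place 9. At 1.55 and 1.40 TPM, ST6GALNAC3 then stood between ST8SIA1 and ST6GALNAC2, and it overlapped ST8SIA1 (2.01 and 1.47 TPM). Likewise ST3GAL3 (4.13 and 2.85 TPM) overlapped ST3GAL1 (3.31 and 3.39 TPM) with USP47 shRNA. The TPM of ST6GALNAC2 rests on an exonic length of 7558 bases implied by the deposited FPKM, against 3002 bases in GENCODE release 44. That of ST3GAL3 rests on 4425 bases against 19448, that of ST3GAL5 on 5701 against 16300 and that of ST3GAL2 on 6287 against 9745. The places of these enzymes, and of those ranked beside them, therefore depend on the gene model.

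As a share of the summed TPM of all 20 sialyltransferases, which is free of the scale of a library, ST6GALNAC3 made up 9.80% and 7.69% with control shRNA and 2.05% and 2.07% with USP47 shRNA. ST3GAL3 made up 11.2% and 11.0% against 5.46% and 4.21%. Neither pair of groups overlapped. The shares of ST6GALNAC4 were 20.6% and 22.1% against 25.2% and 28.0%, and those of ST3GAL2 were 7.49% and 7.52% against 9.56% and 9.74%. These enzymes thus held more of the sum in both knockdown libraries. Shares add up to the whole, here and below, so a fall of some enzymes raises the shares of the rest even at unchanged levels. The sum itself was 74.0 and 71.0 TPM with control shRNA and 75.7 and 67.8 TPM with USP47 shRNA, and overlapped.

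The split between enzyme groups overlapped as well. The ST6GALNAC enzymes together held 43.5% and 43.0% with control shRNA and 41.8% and 46.0% with USP47 shRNA, and the ST3GAL enzymes held 52.5% and 53.8% against 53.8% and 50.8%. Within the ST6GALNAC group, however, ST6GALNAC3 went from 22.5% and 17.9% to 4.91% and 4.50%, while ST6GALNAC4 went from 47.3% and 51.3% to 60.1% and 60.9%. Within the ST3GAL group, ST3GAL3 went from 21.4% and 20.4% to 10.2% and 8.29%, and ST3GAL2 from 14.3% and 14.0% to 17.8% and 19.2%. The makeup of each group therefore differed between control and knockdown libraries at a like sum of TPM. On the CPM scale, which was used for the fold changes, such a sum was not taken.

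**Figure D3:**
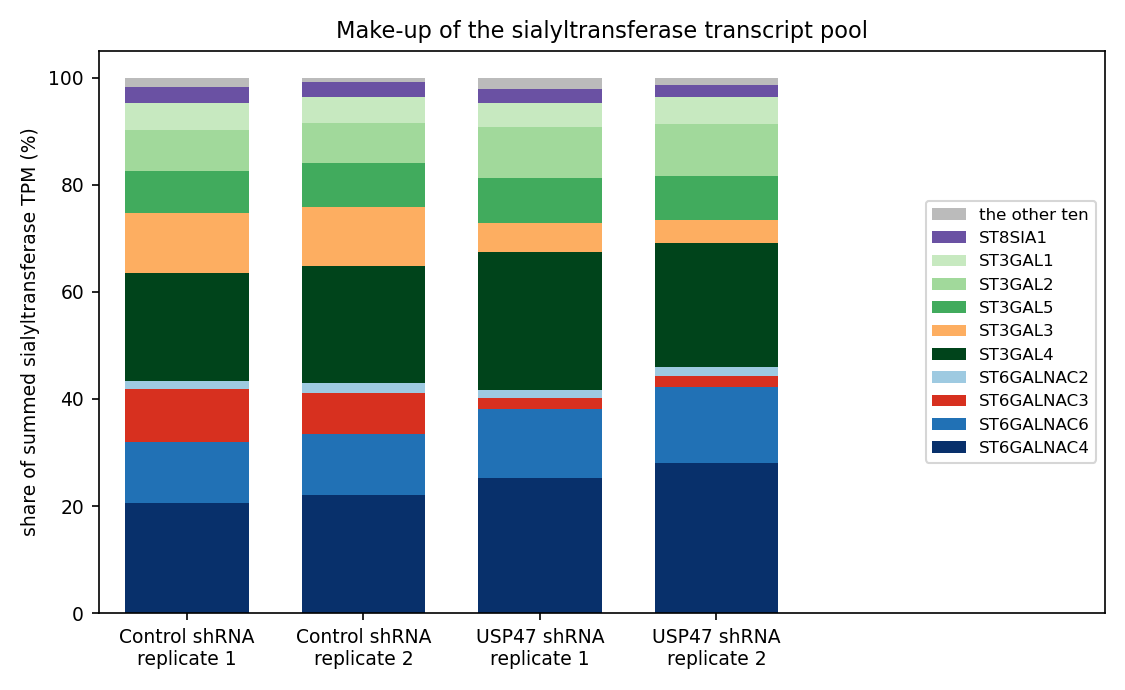
Share of each sialyltransferase in the summed TPM of all 20, in percent, with a stacked bar for each of the 4 libraries and the enzymes of low level drawn together. The bands of ST6GALNAC3 (9.80% and 7.69% in control) and ST3GAL3 are narrower in both USP47 shRNA libraries, and those of ST6GALNAC4 and ST3GAL2 are wider.

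Of the 10 sialyltransferases outside the set, 4 passed the filter and 1 rose. This was ST8SIA5, which adds sialic acid to gangliosides, at 1.41 and 0.968 CPM with control shRNA and 3.80 and 2.65 CPM with USP47 shRNA. Its log2 fold change was 1.47 (SE 0.30, adjusted p = 0.0105, edgeR's quasi-likelihood test), at a low level of 24, 19, 79 and 38 counts, and without Control shRNA replicate 2 the adjusted p was 0.0595. ST3GAL4, which shares acceptors with ST3GAL3, stood at 45.4 and 54.1 CPM against 59.7 and 64.8 CPM, with a log2 fold change of 0.32 (SE 0.14, edgeR adjusted p = 0.132). ST3GAL6 and ST8SIA1, the GD3 synthase, had log2 fold changes of -0.73 (SE 0.39) and -0.15 (SE 0.13), and neither reached the threshold.

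Around the members, lists of 90 genes covered the making, transfer and removal of sialic acid and the sugar chains it is placed on. Of these, 66 passed the filter, 11 fell and 5 rose by edgeR's quasi-likelihood test at an adjusted p under 0.05, with a median log2 fold change of 0.055. Of all genes tested, 9.56% fell and 6.52% rose by this measure, and the counts in each list are to be read beside these shares. Of the 16 genes called, 4 (CTSA, GALNT16, MGAT3 and UGT8) stayed past the threshold whichever single library was left out. The other 12 lost it without at least 1 library. Without Control shRNA replicate 1, 9 of the 16 lost it, without Control shRNA replicate 2, 10 did, without USP47 shRNA replicate 1, only GALNT17 did, and without USP47 shRNA replicate 2, 0 did.

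Of 10 genes for the synthesis, transport, modification and breakdown of sialic acid, 9 were tested, 1 fell and 0 rose. The one that fell was CMAS, which activates sialic acid by joining it to CMP. It stood at 21.8 and 21.6 CPM with control shRNA and 14.1 and 13.7 CPM with USP47 shRNA, a log2 fold change of -0.64 (SE 0.14, adjusted p = 0.0136, edgeR's quasi-likelihood test). Without either control library this call was lost. GNE, NANS, NANP and SLC35A1 did not pass the test.

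Of the list of sialidases, the enzymes that remove sialic acid, 3 of 5 were tested and 2 rose, with a median log2 fold change of 0.86. NEU1, the lysosomal sialidase, stood at 36.8 and 42.3 CPM with control shRNA and 61.4 and 82.3 CPM with USP47 shRNA (log2 fold change 0.86, SE 0.16, edgeR adjusted p = 0.00741), and without Control shRNA replicate 1 the adjusted p was 0.069. CTSA, the lysosomal carboxypeptidase that holds NEU1 in an active complex and is no sialidase itself, stood at 43.6 and 48.4 CPM against 90.8 and 107.6 CPM (log2 fold change 1.11, SE 0.14, edgeR adjusted p = 0.00116). CTSA shares 329 exonic bases with PLTP on the other strand, whose counts were 1154 and 1557 with control shRNA and 1053 and 1042 with USP47 shRNA. The plasma membrane sialidase NEU3 had a log2 fold change of -0.09 (SE 0.14, edgeR adjusted p = 0.704). The median of this list thus rests on 3 genes, of which the pair that rose works in the lysosome.

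The O-glycans that ST6GALNAC enzymes extend are begun by the GALNT enzymes. Of 27 genes for starting and building these chains, 18 were tested, 4 fell and 0 rose, with a median of 0.098. GALNT16 fell most, from 13.6 and 12.9 CPM to 4.81 and 4.18 CPM (log2 fold change -1.55, SE 0.17, edgeR adjusted p = 0.000688). GALNT12 (-0.72, SE 0.18, edgeR adjusted p = 0.0220) and GALNT17 (-0.65, SE 0.19, edgeR adjusted p = 0.0432) fell by less. GCNT1, which branches the O-glycan core, fell by 1.06 on the log2 scale (SE 0.26, edgeR adjusted p = 0.0216) from 4.19 and 4.94 CPM to 1.73 and 2.79 CPM. It shares 262 exonic bases with PRUNE2 on the other strand, which was counted 1562 and 1664 times with control shRNA and 1361 and 915 times with USP47 shRNA and fell as well (log2 fold change -0.45, SE 0.12, edgeR adjusted p = 0.0339). Reads of the pair cannot be told apart where they overlap if the strand was not used in counting. By DESeq2's Wald test GCNT1 and GALNT17 did not reach the threshold (adjusted p = 0.0506 and 0.107).

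Of 13 genes that branch and galactosylate N-glycans, which carry much of the sialic acid that ST3GAL enzymes add, all 13 were tested, 3 fell and 1 rose, with a median of -0.20. MGAT3, which adds the bisecting N-acetylglucosamine, stood at 9.55 and 11.3 CPM with control shRNA and 1.44 and 2.58 CPM with USP47 shRNA. Its log2 fold change of -2.43 (SE 0.25, adjusted p = 0.000602, edgeR's quasi-likelihood test) was larger in size than that of ST6GALNAC3, a difference that was not tested. The Golgi mannosidase MAN2A2 (-0.60, SE 0.13, edgeR adjusted p = 0.0142) and the branching enzyme MGAT5 (-0.46, SE 0.13, edgeR adjusted p = 0.0413) fell, whereas the branching enzyme MGAT4B rose from 44.3 and 46.4 CPM to 67.6 and 82.1 CPM (0.72, SE 0.14, edgeR adjusted p = 0.00806). Each of these 3 calls was lost without either control library. MGAT4B shares 105 exonic bases with SQSTM1 on the other strand, which was counted 1033 and 1323 times with control shRNA and 1561 and 1412 times with USP47 shRNA.

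Of 10 genes for gangliosides and other glycosphingolipids, 8 were tested, 3 fell and 1 rose, with a median of -0.24. UGT8, which makes galactosylceramide, fell from 24.9 and 22.9 CPM to 11.3 and 8.01 CPM (log2 fold change -1.30, SE 0.18, edgeR adjusted p = 0.00191). B3GALNT1, the globoside synthase, fell by a like amount at a lower level, from 3.60 and 2.45 CPM to 1.35 and 1.05 CPM (-1.30, SE 0.30, edgeR adjusted p = 0.0171), and lost the call without Control shRNA replicate 1. It shares 190 exonic bases with NMD3 on the other strand, which was counted 551 and 617 times with control shRNA and 988 and 561 times with USP47 shRNA. B4GALNT1, which builds on the product of ST3GAL5, fell (-0.50, SE 0.14, edgeR adjusted p = 0.0388) and shares 2136 exonic bases with the pseudogene SLC26A10P on the other strand, which was counted 44 and 43 times with control shRNA and 20 and 13 times with USP47 shRNA. The lactosylceramide synthase B4GALT5, whose product ST3GAL5 sialylates, rose (0.46, SE 0.12, edgeR adjusted p = 0.0299), and with libraries scaled by size alone its adjusted p was 0.0602. The calls of B4GALNT1 and B4GALT5 were lost without either control library, and that of B4GALNT1 also by DESeq2's Wald test (adjusted p = 0.0622).

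Of 15 genes for Lewis-type fucosylation, which together with ST3GAL enzymes makes sialyl Lewis antigens, 11 were tested and 0 passed the threshold in edgeR's quasi-likelihood test. The smallest adjusted p in this list was that of GMDS, which makes GDP-fucose, at 0.0907 with a log2 fold change of 0.41. The median of the list was 0.14.

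**Figure D4:**
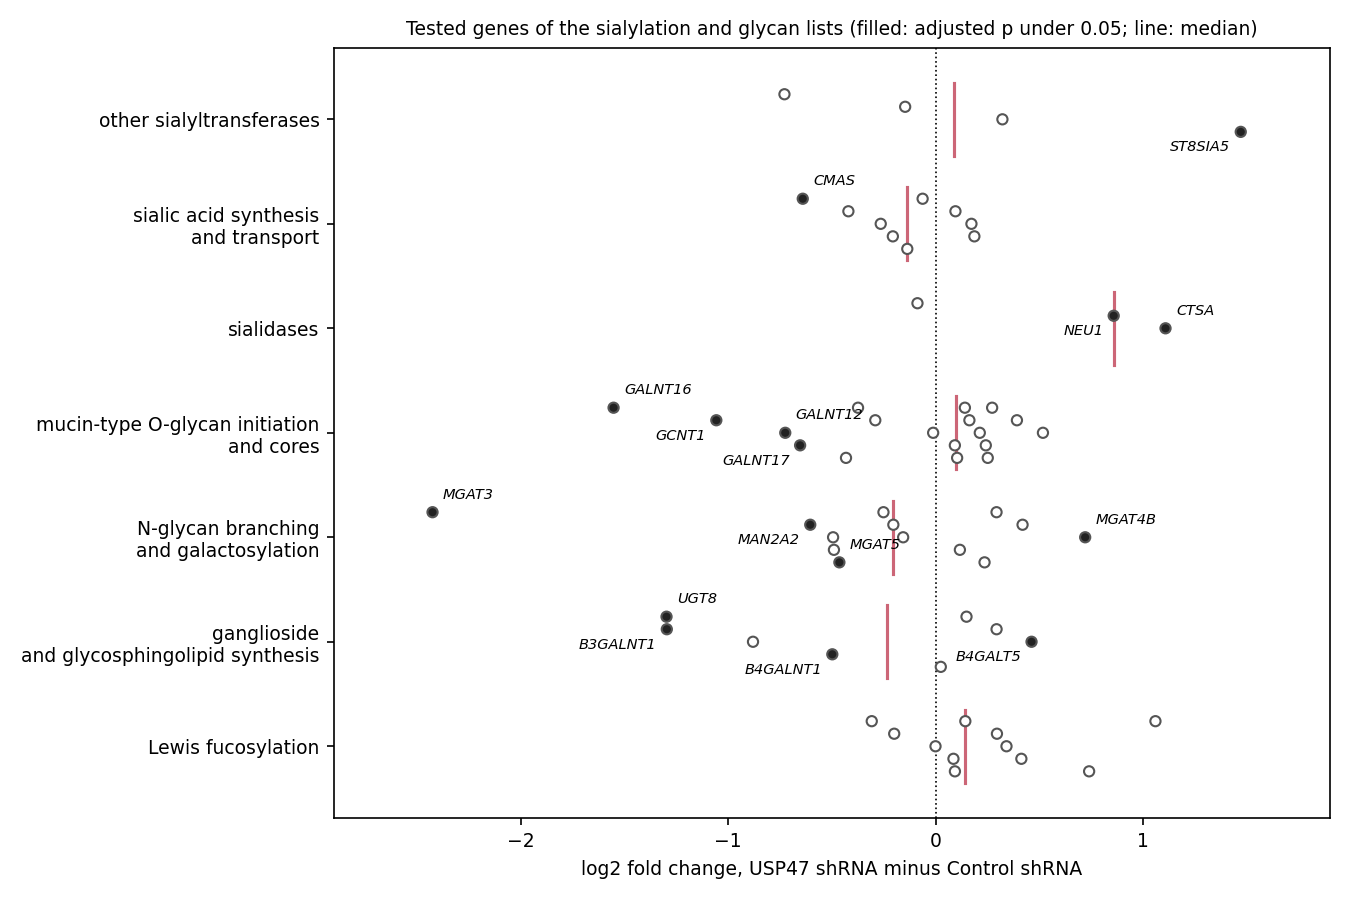
Log2 fold change (USP47 shRNA minus Control shRNA) of the 66 tested genes in 7 lists, with a point for each gene, filled where the adjusted p was under 0.05, and a line at each list's median. MGAT3 (-2.43) and ST8SIA5 (1.47) are the outermost points, and the list of sialidases has the highest median (0.86) over 3 genes.

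The genes whose pattern over the 4 libraries was most like that of ST6GALNAC3 were found among 15791 genes by the root mean square difference of log2 CPM, each gene centred on its own mean. They were FXYD1 (0.0521), RASGRP2 (0.0636) and IL17RD (0.0878). FXYD1, a regulator of the sodium pump, stood at 5.48, 4.69, 1.20 and 1.46 CPM, in the order control replicates 1 and 2 and knockdown replicates 1 and 2. RASGRP2, an exchange factor for Rap proteins, stood at 3.89, 3.36, 0.866 and 0.975 CPM. IL17RD, an inhibitor of FGF signalling, stood at 19.5, 19.2, 4.33 and 5.78 CPM. With 4 libraries in 2 groups, likeness of this kind is set largely by a fall of the same size.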

How the data were processed

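RNA-Seq was analysed from 4 libraries of HGC-27 cells, put into groups from the labels. The deposited files give the authors' read counts per gene in each library without normalization, and TPM and FPKM values that the authors made from them. Reads were trimmed at a quality score of 20 and mapped to hg19 with STAR 2.7.5c, and duplicates were removed with SAMtools 1.9, which lowers the counts of abundant genes most. The submitters' processing notes also name featureCounts and DESeq2 1.26.0. The gene annotation and the strand setting of the counting are not given in the sources used here. The labels and the methods name different library kits.

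Counts were tested in edgeR 4.0.16 under R 4.3.3 (filterByExpr, TMM, robust quasi-likelihood fit, Benjamini-Hochberg adjustment over all genes tested). SE is the absolute log2 fold change over the root of its F statistic. TPM was used for levels between genes and FPKM for the exonic length it implies. Total counts of 15649899 to 20140273 put 3 counts at 0.144 to 0.209 CPM, which covers counting error only. Gene positions, overlaps and neighbours came from GENCODE release 44 lifted to GRCh37. As a check of the code, the steps were run on simulated counts with 200 changed genes, fewer than the 3527 called in these data. The check of leukocyte markers is not reported here.

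The members and the gene lists were chosen with earlier results of these data known. Genes named in the text are the members, USP47, the other sialyltransferases, the list genes that passed the threshold, some genes that share exonic bases with these, and the 3 genes most like ST6GALNAC3. A few others were named after their values were seen. Alternatives covered scaling by DESeq2's size factors or by library size alone, no filter or a minimum of 10 counts in each library, the Wald test of DESeq2 1.42.0, edgeR's legacy fit, the deposited TPM with pseudocounts of 0.1 and 1, the replicate number as a block, and each library left out.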

Additional observations from a re-analysis of the deposited data

How the results depend on the processing

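Over the alternatives and the fits without 1 library, the log2 fold change of ST6GALNAC3 ran from -2.10 to -1.56 and that of ST3GAL3 from -1.20 to -1.02, given as a description since the members were chosen on this contrast. USP47 ranged from -1.75 to -1.01 over the fits without 1 library. In those fits the lone library of a group is assumed to vary like the other group, and the number of genes past the threshold went from 3527 to between 1230 (without Control shRNA replicate 1) and 7270 (without USP47 shRNA replicate 1), that of members from 2 to between 2 and 5 (5 without USP47 shRNA replicate 1), and that of the 66 tested list genes from 16 to between 6 (without Control shRNA replicate 2) and 28 (without USP47 shRNA replicate 2). The cause was not tested. With the replicate number as a block, 7422 of the 21932 genes tested passed, 3892 lower and 3530 higher. Beside these, 29 list genes and 5 members passed (ST6GALNAC3 and ST3GAL3 lower, ST3GAL2, ST6GALNAC4 and ST6GALNAC6 higher). Same-numbered libraries deviated together with a correlation of 0.213, but no source says that a number marks a shared batch, so this pairing rests on a number alone. Other scalings, filters and tests gave 2455 to 3495 genes in all, 2 or 3 members and 13 to 17 list genes.

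The direction of ST3GAL1 turned with libraries scaled by size alone (-0.061), without a filter (-0.018), with at least 10 counts in every library (-0.00010), on TPM with pseudocounts of 0.1 (-0.11) and 1 (-0.091), and over the fits without 1 library it ran from -0.22 to 0.24. That of ST6GALNAC2 ran from -0.23 to 0.050 over those fits. On CPM their groups overlapped, and on TPM both knockdown libraries lay below both controls for each of these genes (ST3GAL1 at 3.78 and 3.50 against 3.31 and 3.39 TPM, ST6GALNAC2 at 1.24 and 1.33 against 1.18 and 1.04 TPM). Scaling by size alone moved the median of all genes to -0.072. Depth limits ST6GALNAC5 and ST6GAL1, which have 7 counts or fewer in every library.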

Other observations

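Among the list genes that the filter on low counts removed, 2 passed the threshold when no filter was used. GALNT6, which starts O-glycans, was counted 9 and 13 times with control shRNA and 2 and 1 times with USP47 shRNA (log2 fold change -2.75, SE 0.59, adjusted p = 0.0185, edgeR's quasi-likelihood test without a filter). FUT7, the fucosyltransferase that completes sialyl Lewis x, was counted 7 and 14 times against 2 and 2 times (-2.29, SE 0.61, adjusted p = 0.0471 in the same test). Both were named after their values were seen. GALNTL6 was counted 0 and 0 times with control shRNA and 3 and 4 times with USP47 shRNA, which is at the limit of what these libraries can show.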
